A study of Trichoderma reesei with 8 samples.

Results

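The effect of deleting *ypr2* was examined in cultures of *Trichoderma reesei* that grew in constant light. The comparison comprised 4 of the 8 RNA-seq libraries of the series, namely 2 cultures of ∆*ypr2* and 2 cultures of the wildtype QM6a, chosen by the strain and the light condition in their labels. All 4 cultures had grown for 72 h at 28 °C in constant light (1600 lx) in minimal medium with 1% cellulose and a little peptone. The other 4 libraries are ∆*ypr2* and QM6a from constant darkness, with 2 cultures each, and they entered the same statistical fit. ∆*ypr2* is a mutant that lacks the gene, and the number of independent transformants behind it is not given in the sources used here.

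*T. reesei* is a filamentous ascomycete known for the enzymes it secretes to degrade cellulose. Its metabolism responds to light, and light signals reach the genes for cellulases and for secondary metabolites alike. YPR2 is a transcription factor encoded in the SOR cluster, a group of neighbouring genes that form and export sorbicillinoids, yellow polyketide pigments. Several of the genes described here serve iron uptake by siderophores, small iron chelators that fungi secrete and take up again through dedicated transporters.

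The deposited values summed to 17.38 and 20.98 Mio expected counts in the ∆*ypr2* libraries and to 17.73 and 16.88 Mio in the wildtype libraries from light. Levels are given as CPM, that is counts per Mio after TMM scaling of the libraries. In the light libraries 1 count corresponded to 0.0456 to 0.0577 CPM. As a check of the growth condition, *env1*, the light-induced photoreceptor gene, had 351 and 316 CPM in ∆*ypr2* and 380 and 420 CPM in the wildtype in light, against 8.48 and 10.5 CPM (∆*ypr2*) and 8.69 and 5.39 CPM (wildtype) in darkness. All 4 light cultures thus lay far above all 4 dark cultures for this gene. Culture 2 of ∆*ypr2* stood apart from the other light cultures in the cellulose-degrading enzymes, which are described by culture, and counts without single libraries are given beside the results. RNA of whole mycelium was measured, so a change in the share of a cell type and a change in the RNA per cell cannot be told apart.

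In light few transcripts changed. Of 8469 genes tested, 44 were called, 32 upregulated and 12 downregulated in ∆*ypr2*, which is 0.520%, 0.378% and 0.142% of the genes tested. A gene was called at an adjusted p under 0.01 (quasi-likelihood F test of edgeR, Benjamini-Hochberg adjustment over all genes) if the strains also differed 2-fold or more. The median log2 fold change over all genes was -0.003, and 91.1% of genes lay within 0.5 of 0 on the log2 scale. Without the fold limit 184 genes passed, 99 upregulated and 85 downregulated (2.17%, 1.17% and 1.00% of the genes tested). Most called changes were moderate, with 21 of the 32 rises and 8 of the 12 falls below 4-fold. The count of 44 depends on the dark libraries as well, since the spread was estimated over all 8 libraries. The common biological coefficient of variation was 0.0453 in the 4 light and 0.0808 in the 4 dark libraries. With the 4 light libraries alone 72 genes were called.

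**Figure D1:**
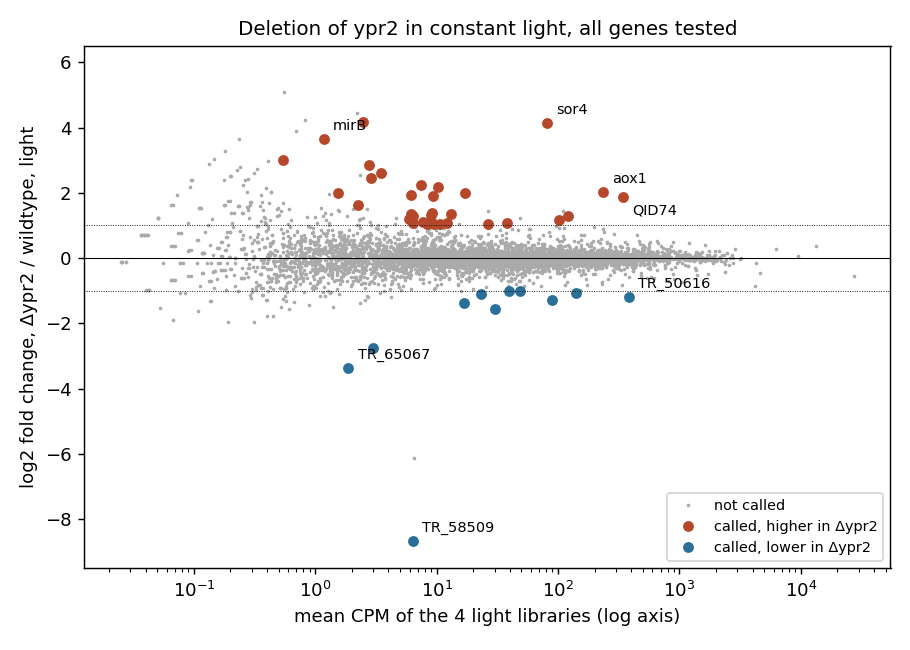
Log2 fold change of ∆*ypr2* over the wildtype in light (vertical axis) against the mean level of the 4 light libraries in CPM (horizontal log axis), with 1 point for each gene. Red points are the called rises and blue points the called falls, dotted lines mark a 2-fold change, and genes at 0 in both cultures of a strain, *ypr2* among them, are not drawn. The grey mass of genes lies close to 0, while *sor4* stands apart at 4.14 and TR_58509 at -8.65.

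The changes were then checked in each culture. In all 44 called genes both ∆*ypr2* cultures lay on the same side of both wildtype cultures, which was also the case for 53.3% of all genes tested. In 31 of the 44 genes (24 rises and 7 falls) even the closest pair of a ∆*ypr2* and a wildtype culture was at least 2-fold apart, against 89 of 8469 genes tested, or 1.05%. The closest pair among the called genes was 1.61-fold apart, in TR_111915. These separations come from the values that made the calls and are a description of them. In 24 of the 32 rises culture 2 of ∆*ypr2* had the higher level of both mutant cultures, and in 10 of the 12 falls (all but TR_106171 and TR_58509) its level was not above that of culture 1.

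**Figure D2:**
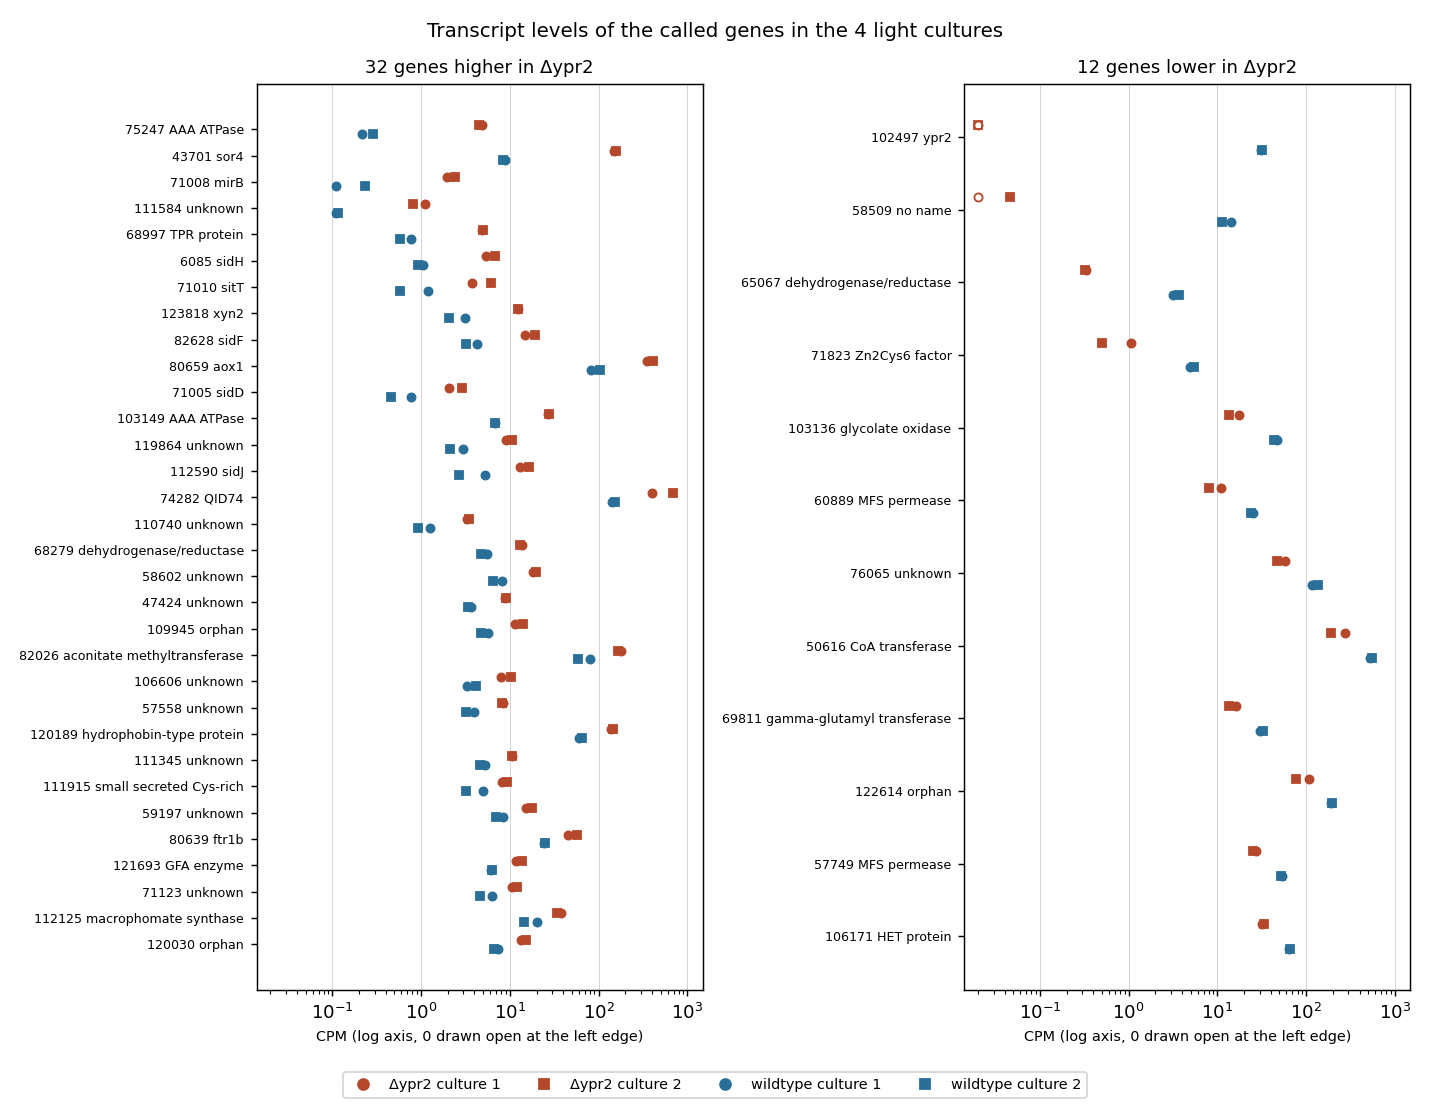
Levels in CPM (horizontal log axis) of the 32 upregulated genes (left) and the 12 downregulated genes (right) in each of the 4 light cultures. ∆*ypr2* is red and drawn above the wildtype, which is blue, circles are culture 1 and squares culture 2, and a level of 0 is drawn open at the left edge. The colours are separated in every row, by as little as 1.61-fold in TR_111915.

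The deleted gene *ypr2* itself had 0 counts in both ∆*ypr2* cultures in light, against 30.9 and 31.6 CPM in the wildtype. The level in ∆*ypr2* was thereby at least 416-fold lower (floor of 3 counts over both libraries), so the light libraries match their strain labels. In darkness *ypr2* had 0.543 and 0.263 CPM in ∆*ypr2* (10 and 6 counts) and 165 and 153 CPM in the wildtype. Where these few reads in ∆*ypr2* come from was not tested. A further gene, TR_58509, was nearly as empty. It had 0 and 0.0456 CPM in ∆*ypr2* and 14.1 and 11.3 CPM in the wildtype. This is 1 count in ∆*ypr2* against 454 in the wildtype, a ratio of 508 (95% counting interval 90.8 to 20122) of wildtype over ∆*ypr2*. In darkness TR_58509 averaged 0.0762 CPM in ∆*ypr2* and 25.1 CPM in the wildtype. *ypr2* and TR_58509 were the only 2 genes tested with under 1 CPM in all 4 ∆*ypr2* libraries and over 5 CPM in all 4 wildtype libraries. Of the genes beside TR_58509, TR_58607 had 47.9 and 48.0 CPM in ∆*ypr2* and 48.7 and 46.4 CPM in the wildtype, whereas TR_120981 was slightly higher in ∆*ypr2* with 171 and 180 CPM against 135 and 130 CPM in the wildtype (log2 fold change 0.41 ± 0.06, ± standard error throughout; adjusted p = 0.0047, below the fold limit). Whether the locus of TR_58509 differs between the strains was not tested.

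A pair of neighbouring genes was downregulated in light. They are TR_65067, a short-chain dehydrogenase/reductase gene, and TR_71823, which encodes a zinc cluster transcription factor of the Zn2Cys6 type. TR_65067 had 0.334 and 0.319 CPM in ∆*ypr2* and 3.17 and 3.69 CPM in the wildtype. TR_71823 had 1.06 and 0.501 CPM in ∆*ypr2* and 4.92 and 5.42 CPM in the wildtype. Both were low in both mutant cultures and well separated from the wildtype, with log2 fold changes of -3.37 ± 0.32 (adjusted p = 0.00086) and -2.76 ± 0.36 (adjusted p = 0.0032). In darkness their averages were 0.502 and 1.69 CPM in ∆*ypr2* and 0.199 and 0.400 CPM in the wildtype. The call in light was lost without ∆*ypr2* culture 2 or wildtype culture 2 for both genes, and for TR_71823 also without wildtype culture 1 (adjusted p up to 0.0204 in TR_65067 and 0.0505 in TR_71823).

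TR_103136, annotated as a glycolate oxidase, an enzyme that oxidizes a small hydroxy acid, had 17.5 and 13.4 CPM in ∆*ypr2* and 46.5 and 43.7 CPM in the wildtype (log2 fold change -1.55 ± 0.13, adjusted p = 0.00045). This fall was called in every fit that left out 1 library. The most abundant downregulated gene was TR_50616, a coenzyme A transferase gene, with 273 and 191 CPM in ∆*ypr2* and 521 and 545 CPM in the wildtype. Its call was lost without ∆*ypr2* culture 2, without either wildtype culture from light and without either wildtype culture from darkness (log2 fold change between -1.48 and -0.96, adjusted p up to 0.056). TR_69811, annotated as a gamma-glutamyltranspeptidase, an enzyme of glutathione breakdown, had 16.0 and 13.5 CPM in ∆*ypr2* and 30.3 and 32.3 CPM in the wildtype. Its call was lost without any 1 of the 4 light libraries (adjusted p up to 0.062).

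The genes TR_60889 and TR_57749 encode permeases of the major facilitator superfamily, membrane transporters for small solutes. TR_60889 had 10.9 and 8.11 CPM in ∆*ypr2*, against 25.04 and 23.8 CPM in the wildtype. TR_57749 had 27.0 and 25.3 CPM in ∆*ypr2*, against 53.4 and 52.6 CPM in the wildtype. Both mutant cultures were clearly below both wildtype cultures in either gene, and the cultures of a strain lay close together in TR_57749 (log2 fold change -1.02 ± 0.07). Without ∆*ypr2* culture 2 both lost the call, TR_57749 only by the fold limit (-0.975), and TR_60889 also lost it without wildtype culture 1 or 2 (adjusted p up to 0.040). The remaining falls were TR_76065, a gene of unknown function, the orphan gene TR_122614 and TR_106171, which encodes a HET protein, a family known for heterokaryon incompatibility in fungi. TR_76065 had 57.8 and 46.4 CPM in ∆*ypr2* and 118 and 135 CPM in the wildtype. Its call was lost without any 1 of the light libraries (-1.448 to -1.131). TR_122614 had 107 and 76.2 CPM in ∆*ypr2* and 189 and 194 CPM in the wildtype. Its call was lost without ∆*ypr2* culture 2 or either wildtype light culture (-1.329 to -0.835). TR_106171 had 31.5 and 33.6 CPM in ∆*ypr2* and 63.9 and 66.6 CPM in the wildtype, so it sat at the 2-fold limit (-1.001) and lost its call without any 1 of the light libraries or without ∆*ypr2* dark culture 2 (between -1.05 and -0.955). Just outside it was TR_72788 with 3.57 and 3.33 CPM in ∆*ypr2* and 7.38 and 6.23 CPM in the wildtype (-0.99 ± 0.14, adjusted p = 0.0052).

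On the side of the rises the gene with the clearest response was *sor4*, the transporter gene of the SOR cluster. It had 148 and 158 CPM in ∆*ypr2* and 8.91 and 8.42 CPM in the wildtype. Both mutant cultures were thus at least 16.6-fold above both wildtype cultures (log2 fold change 4.14 ± 0.22, adjusted p = 3.3e-05). *sor4* ends 517 bases before *ypr2* begins (501681 to 503622 and 504139 to 506466 on their scaffold of assembly v2.0). *sor7*, the cluster gene on the other side of *ypr2* (506653 to 508536), had 4.01 and 3.97 CPM in ∆*ypr2* and 0.711 and 0.635 CPM in the wildtype. Its cultures were separated by 5.58-fold or more, but with all 8 libraries in the fit it was not called (2.55 ± 1.13, adjusted p = 0.29). With the 4 light libraries alone the log2 fold change was 2.56 (adjusted p = 2.2e-05), and without ∆*ypr2* dark culture 1 or 2 it was called as well (adjusted p = 0.00061 and 0.00070). *sor7* had 53.2 and 12.4 CPM in these 2 dark mutant cultures. The polyketide synthase genes of the cluster behaved differently. *sor1* had 14.3 and 16.5 CPM in ∆*ypr2* and 14.9 and 15.1 CPM in the wildtype, and *sor2* had 4.35 and 3.56 CPM in ∆*ypr2* and 4.05 and 3.98 CPM in the wildtype. For both genes the cultures of the strains overlapped. The cluster gene *sor5* and the regulator gene *ypr1* had 0 counts in all 4 light cultures. Of the 7 genes of the cluster, 1 was thus upregulated and 1, the deleted *ypr2* itself, downregulated in light. The median log2 fold change over the 5 genes with counts was 0.04, but *ypr2* is among these 5. The values of the others were 4.14 (*sor4*), 2.55 (*sor7*), 0.04 (*sor1*) and -0.03 (*sor2*).

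All 6 genes of the siderophore cluster were upregulated in light by the test used here, 5 of them in the fit with the replicate number as a block (all but *sidD*, TR_71005, adjusted p = 0.012) and 4 by limma-voom (all but *sidD* and *sitT*, adjusted p = 0.013 each). They are the homologues of *Aspergillus* genes for siderophore synthesis (*sidD*, *sidF*, *sidH*), siderophore hydrolysis (*sidJ*) and transport (*sitT*, *mirB*), and they lie side by side (26764 to 46657 on their scaffold). *sidF* had 14.8 and 19.0 CPM in ∆*ypr2* and 4.26 and 3.17 CPM in the wildtype. *sidJ* had 13.04 and 16.5 CPM in ∆*ypr2* and 5.25 and 2.65 CPM in the wildtype. *sidH* had 5.35 and 6.75 CPM in ∆*ypr2* and 1.04 and 0.923 CPM in the wildtype. For these 3 genes both mutant cultures exceeded both wildtype cultures by at least 3.47-fold, 2.48-fold and 5.15-fold. *sitT* had 3.73 and 6.11 CPM in ∆*ypr2* and 1.20 and 0.577 CPM in the wildtype. *sidD*, a gene for a non-ribosomal peptide synthetase, had 2.06 and 2.87 CPM in ∆*ypr2* and 0.766 and 0.462 CPM in the wildtype. *mirB*, a siderophore importer gene, had 1.95 and 2.42 CPM in ∆*ypr2* and only 0.109 and 0.231 CPM in the wildtype. In each of the 6 genes culture 2 was the higher one of ∆*ypr2*, and in 5 of them (all but *mirB*) culture 2 was the lower one of the wildtype.

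Over the 6 genes the log2 fold changes ranged from 1.90 ± 0.25 (*sidJ*) to 3.66 ± 0.42 (*mirB*). Their median was 2.32 against -0.003 over all genes tested. The cluster was chosen with earlier results of these data known, so this contrast is a description. The genes beside the run, TR_82626 and TR_70988, were not called. TR_82626 had 16.4 and 18.1 CPM in ∆*ypr2* and 14.6 and 13.6 CPM in the wildtype (0.29 ± 0.10, adjusted p = 0.17). The number of called genes of the run was 4 without ∆*ypr2* culture 1, 2 without ∆*ypr2* culture 2, 2 without wildtype culture 1 and 0 without wildtype culture 2 from light, and 4 without either wildtype culture from darkness. In these fits the log2 fold changes of the 6 genes remained between 1.50 (*sidJ*) and 4.25 (*mirB*).

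Outside the cluster, 1 of 8 other iron genes was called. The iron permease gene *ftr1b* had 45.9 and 56.5 CPM in ∆*ypr2* and 24.4 and 24.8 CPM in the wildtype (log2 fold change 1.06 ± 0.10, adjusted p = 0.00086). Its partner in reductive iron uptake, the ferroxidase gene *fet3b*, had 33.5 and 35.7 CPM in ∆*ypr2* and 18.0 and 18.3 CPM in the wildtype. This difference was close in size (0.93 ± 0.08, adjusted p = 0.00052) and missed the 2-fold limit. Without ∆*ypr2* culture 2 or either wildtype culture *ftr1b* lost its call (adjusted p up to 0.018). The paralogous pair *fet3a* and *ftr1a* had 75.5 and 69.8 CPM and 70.2 and 67.1 CPM in ∆*ypr2*, against 57.4 and 52.8 CPM and 62.4 and 56.4 CPM in the wildtype, with adjusted p of 0.14 and 0.29. The siderophore transporter gene TR_78465 had 84.7 and 92.0 CPM in ∆*ypr2* and 68.0 and 62.0 CPM in the wildtype (0.44 ± 0.07, adjusted p = 0.0059, below the fold limit). TR_60751, a ferrichrome-type peptide synthetase gene, had 0.891 and 0.775 CPM in ∆*ypr2* and 0.656 and 0.692 CPM in the wildtype (adjusted p = 0.75). The homologue of *hapX*, a gene for an iron regulator, had 102 and 105 CPM in ∆*ypr2* and 102 and 99.0 CPM in the wildtype, and the homologue of the iron repressor gene *sreA* had 44.5 and 50.1 CPM in ∆*ypr2* and 40.7 and 49.7 CPM in the wildtype. The cultures of both strains overlapped for these 2 regulator genes. The median of the 8 genes was 0.35. In 6 of them both mutant cultures were higher than both wildtype cultures, where 25.0% of all genes tested had this order. This list, too, was chosen with earlier results of these data known.

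The highest levels among the upregulated genes were those of *aox1* and the homologue of QID74. *aox1* encodes an alcohol oxidase, an enzyme that oxidizes short alcohols. It had 349 and 407 CPM in ∆*ypr2* and 82.1 and 104 CPM in the wildtype (log2 fold change 2.02 ± 0.14, adjusted p = 0.00016). The QID74 homologue TR_74282, a cell wall protein gene with tandem repeats, had 402 and 684 CPM in ∆*ypr2* and 142 and 154 CPM in the wildtype (1.88 ± 0.22, adjusted p = 0.0022). Both were clearly higher in each mutant culture, although the mutant cultures differed for TR_74282, and that gene lost its call without wildtype culture 1 or 2 (adjusted p up to 0.040). TR_82026, annotated as a trans-aconitate methyltransferase, had 178 and 167 CPM in ∆*ypr2* and 81.03 and 59.2 CPM in the wildtype, and lost its call without any 1 of the light libraries (log2 fold change 1.09 to 1.54, adjusted p up to 0.044).

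Proteins of the cell surface were measured as well. TR_120189, which encodes a protein of the hydrophobin type, had 137 and 146 CPM in ∆*ypr2* and 59.9 and 65.6 CPM in the wildtype (log2 fold change 1.17 ± 0.09, adjusted p = 0.00021), and its call was kept without any 1 of the 8 libraries. Hydrophobins are small secreted proteins that coat hyphae and spores and make them water repellent. *hfb2*, at 15156 and 15124 CPM in ∆*ypr2* and 12265 and 11047 CPM in the wildtype, was among the 5 most abundant transcripts of these libraries. It and *hfb3* were slightly higher in both mutant cultures (0.38 ± 0.08 and 0.39 ± 0.07, adjusted p = 0.029 and 0.014) and were not called. *hfb1* was not among the genes tested. *hfb5* had 19.2 and 23.8 CPM in ∆*ypr2* and 25.8 and 24.1 CPM in the wildtype. *hfb4* stayed under 1 CPM in every light culture, with 0.390 and 0.775 CPM in ∆*ypr2* and 0.109 and 0.0577 CPM in the wildtype. At these few counts its log2 fold change was 2.74 ± 0.65 (adjusted p = 0.044), and it was called only at the looser thresholds. TR_121251, a CFEM domain protein related to the adhesin Mad1, had 164 and 156 CPM in ∆*ypr2* and 58.0 and 59.5 CPM in the wildtype. This separation was 2.63-fold or more, but the gene was not called with all 8 libraries (1.45 ± 0.30, adjusted p = 0.026). It was called with the 4 light libraries alone (adjusted p = 1.6e-09), by DESeq2 (adjusted p = 0.0098) and without ∆*ypr2* dark culture 1 or 2 (adjusted p = 5.9e-05 and 5.4e-05). The CFEM protein gene TR_123475 had 762 and 846 CPM in ∆*ypr2* and 548 and 686 CPM in the wildtype (adjusted p = 0.25).

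Several upregulated genes had low levels. TR_75247 encodes an ATPase of the AAA+ type, a family of protein remodelling machines. It had 4.85 and 4.51 CPM in ∆*ypr2* and 0.219 and 0.288 CPM in the wildtype (log2 fold change 4.17 ± 0.38, adjusted p = 0.00078). This was the largest fitted rise among the called genes, at a wildtype level of a few counts, and it was lost without wildtype culture 1 or 2 (adjusted p up to 0.018). The TPR domain protein gene TR_68997 had 4.85 and 4.97 CPM in ∆*ypr2* and 0.766 and 0.577 CPM in the wildtype (2.85 ± 0.17, adjusted p = 6.8e-05). It was called in every fit that left out 1 library. TR_111584, 1 gene away from it, had 1.11 and 0.821 CPM in ∆*ypr2* and 0.109 and 0.115 CPM in the wildtype, while TR_69081 between them was at 29.8 and 29.4 CPM in ∆*ypr2* and 26.9 and 26.6 CPM in the wildtype and was not called (0.14 ± 0.06, adjusted p = 0.27). TR_111584 kept its call only without a ∆*ypr2* dark culture among the fits that left out 1 library (log2 fold change 2.80 to 3.24, adjusted p up to 0.097).

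A further pair of neighbours was TR_103149, annotated as an AAA ATPase, and TR_119864, of unknown function. TR_103149 had 26.6 and 27.9 CPM in ∆*ypr2* and 6.78 and 6.87 CPM in the wildtype. TR_119864 had 9.03 and 10.6 CPM in ∆*ypr2* and 2.95 and 2.13 CPM in the wildtype. Both mutant cultures were at least 3.88-fold and 3.06-fold above both wildtype cultures, and both genes kept their call without any 1 library (log2 fold change 1.998 ± 0.11 in TR_103149 and 1.95 ± 0.16 in TR_119864). They lie 572 bases apart, and TR_74282, the QID74 homologue, follows with 1 gene between. That gene, TR_44366, had 12.9 and 14.5 CPM in ∆*ypr2* and 11.3 and 11.1 CPM in the wildtype and was not called (0.29 ± 0.10, adjusted p = 0.16). TR_47424 and TR_106606, both of unknown function, formed another pair, 991 bases apart. TR_47424 had 8.80 and 8.98 CPM in ∆*ypr2* and 3.61 and 3.35 CPM in the wildtype, and TR_106606 had 7.97 and 10.2 CPM in ∆*ypr2* and 3.28 and 4.21 CPM in the wildtype. Both were lost without ∆*ypr2* culture 2 or either wildtype culture (adjusted p up to 0.026 in TR_47424 and 0.065 in TR_106606).

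In all, 14 of the 44 called genes had another called gene as a direct neighbour, in 9 pairs of which 8 had the same direction. The exception was *sor4* with *ypr2*. The remaining rises were annotated as a short-chain dehydrogenase/reductase (TR_68279), a small secreted cysteine-rich protein (TR_111915), a glutathione-dependent formaldehyde-activating enzyme (TR_121693), a macrophomate synthase (TR_112125) or as orphan or unknown proteins. Their log2 fold changes lay between 1.03 (TR_120030) and 1.63 (TR_110740). Each of these calls was lost without ∆*ypr2* culture 2 and without wildtype culture 2 from light. Those of TR_68279, TR_111915, TR_121693, TR_110740, TR_59197, TR_71123 and TR_57558 were lost without any 1 of the light libraries. Over the fits that left out 1 library the log2 fold change was 0.80 to 1.46 in TR_111915. It was 0.84 to 1.30 in TR_71123 and 0.92 to 1.17 in TR_121693. TR_112125 had 37.3 and 34.2 CPM in ∆*ypr2* and 20.3 and 14.4 CPM in the wildtype, and was the only one of these at more than 20 CPM in both mutant cultures. It lost its call without either ∆*ypr2* culture or wildtype culture 2 from light and without either wildtype culture from darkness (log2 fold change 0.82 to 1.31, adjusted p up to 0.041). No function was given for 15 of the 44 called genes in the annotation used.

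The enzymes of plant cell wall degradation showed a difference between the mutant cultures themselves. *xyn2*, an endoxylanase gene, was upregulated in both cultures with 12.5 and 12.3 CPM in ∆*ypr2* and 3.12 and 2.08 CPM in the wildtype (log2 fold change 2.25 ± 0.16, adjusted p = 0.00016). It was 1 of 4 hemicellulase genes on the list used, which does not cover the whole family, and the only one called. *xyn2* kept its call without any 1 library. The cellulose-degrading enzymes did not behave in this way. The cellobiohydrolase gene *cbh2* had 0.167 CPM in ∆*ypr2* culture 1 but 8.25 CPM in culture 2, against 0.164 and 0.231 CPM in the wildtype. The endoglucanase gene *egl2* had 0.0557 and 3.10 CPM in ∆*ypr2* and 0.109 and 0.0577 CPM in the wildtype. *cel61a*, a gene for a lytic polysaccharide monooxygenase, which cuts cellulose chains by oxidation, had 0 and 55 counts in ∆*ypr2* and 0 and 0 counts in the wildtype. Thus only culture 2 of ∆*ypr2* had a clear signal of these genes, and culture 1 lay within or near the range of the wildtype.

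The same order of cultures was found in all 9 genes of the list of cellulose-degrading enzymes. This list holds *cip1* and *cip2* beside the genes for cellobiohydrolases, endoglucanases and *cel61* proteins. In each, culture 2 of ∆*ypr2* was above culture 1 and above both wildtype cultures, while culture 1 was above both wildtype cultures in 1 of the 9, *cel61b*, with 2 counts. *cbh1* had 9.86 and 22.0 CPM in ∆*ypr2* and 10.01 and 8.08 CPM in the wildtype. *egl1* had 1.00 and 2.01 CPM in ∆*ypr2* and 1.15 and 1.04 CPM in the wildtype. *cip1*, a gene for a secreted protein with a cellulose binding domain, had 0 and 47 counts in ∆*ypr2* and 0 and 1 in the wildtype. The smallest signals were those of *egl3*, with 0 and 18 counts, and *cip2*, with 0 and 6 counts in ∆*ypr2*, where both wildtype cultures were at 0. Summed over the 9 genes, the level was 11.2 CPM in culture 1 and 42.5 CPM in culture 2 of ∆*ypr2*, against 11.4 and 9.46 CPM in the wildtype. None of the 9 genes was called by the quasi-likelihood test of edgeR, DESeq2 or limma-voom, and 5 of them had an unadjusted p under 0.05 in the quasi-likelihood test. The exact test of edgeR on the light libraries covered 2 of the 9 and called 0. With genes at 0 in the wildtype set at their lower bound, the median log2 fold change of the list was 3.22, a value that rests on culture 2. Without culture 1, *cbh2* was called (log2 fold change 5.35, adjusted p = 0.0083).

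**Figure D3:**
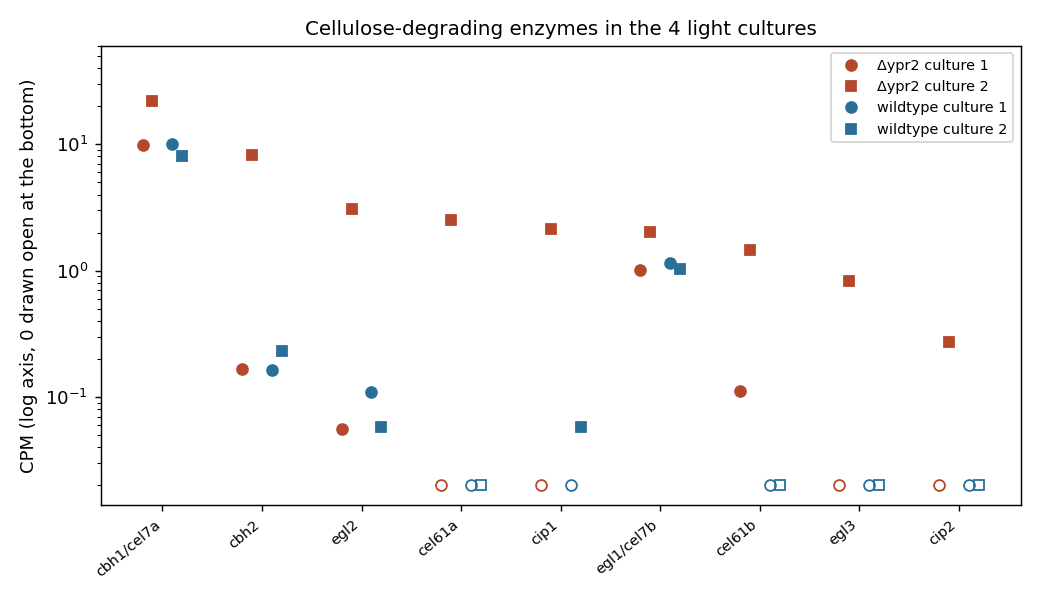
Levels of the 9 genes on the list of cellulose-degrading enzymes, *cip1* and *cip2* among them, in CPM (vertical log axis) in the 4 light cultures. ∆*ypr2* is in red left of the wildtype in blue, with circles for culture 1 and squares for culture 2. A level of 0 is drawn open at the bottom. The red squares, culture 2 of ∆*ypr2*, are the highest point of every gene, from 22.0 CPM in *cbh1* to 0.274 CPM in *cip2*.

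This difference between the mutant cultures was set against the other genes. Of 7918 genes with at least 1 CPM in a ∆*ypr2* light culture, 5 differed by 4-fold or more between both cultures. All 5 were on the list of cellulose-degrading enzymes with the higher level in culture 2, namely *cbh2*, *egl2*, *cel61a*, *cip1* and *cel61b*. Among the 7918 genes the largest ratio of culture 2 over culture 1 outside the list of 9 was 2.86, in TR_3405, the lactose permease homologue. TR_3405 had 19.9 and 57.1 CPM in ∆*ypr2* and 14.1 and 14.3 CPM in the wildtype and was not called with all libraries (log2 fold change 1.45 ± 0.42, adjusted p = 0.092). In the opposite direction the largest ratio, of culture 1 over culture 2, was 3.26. Below 1 CPM, *man1* of the hemicellulase list had 0.0557 and 0.821 CPM in ∆*ypr2* and 0.109 and 0.115 CPM in the wildtype. For *axe1* this was 0.0557 and 0.182 against 0.0547 and 0 CPM. *bgl1* (2.01 and 2.92 against 1.86 and 1.56 CPM) and *bgl2* (8.30 and 13.4 against 7.71 and 7.73 CPM) also had culture 2 of ∆*ypr2* highest. *agl1* (11.9 and 14.5 against 15.9 and 14.8 CPM) and *cel3c* (42.9 and 39.9 against 45.5 and 48.0 CPM) did not. Between the wildtype light cultures 1 gene of 7897 differed by 4-fold or more. This was TR_124318, at 0.164 CPM in culture 1 and 25.5 CPM in culture 2. In darkness the cellulose-degrading enzymes are abundant, with a sum of 25815 and 15048 CPM in ∆*ypr2* and 25988 and 24990 CPM in the wildtype. The level in ∆*ypr2* light culture 2 was between 0.093% (*cel61b*) and 0.33% (*egl1*) of the average of the ∆*ypr2* dark cultures. The origin of these reads was not tested.

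Many groups of genes showed no called change in light. None of 42 ribosomal protein genes, 5 histone genes, 6 proteasome subunit genes and 7 heat shock protein genes was called, with median log2 fold changes of -0.019, -0.048, 0.033 and -0.042, and 0 of them had an unadjusted p under 0.05 (edgeR) or a call by DESeq2 or limma-voom. The exact test of edgeR on the light libraries, which covered all of these but 1 heat shock protein gene, called 0. Of 5 conidiation markers, 4 catalase genes and 4 beta-glucosidase and sugar uptake genes 0 were called by the quasi-likelihood test, by DESeq2 and by limma-voom, and 2, 2 and 1 had an unadjusted p under 0.05. Their median log2 fold changes were -0.132, 0.646 and 0.525, so the last 2 lists were not centred on 0. The exact test covered 4, 3 and 4 of these genes and called 1, TR_3405. *medA*, a gene of a developmental regulator, was higher in both mutant cultures with 293 and 325 CPM in ∆*ypr2* and 232 and 223 CPM in the wildtype (0.44 ± 0.07, adjusted p = 0.0067, below the fold limit). The translation elongation factor gene *tef1a* had 9856 and 9671 CPM in ∆*ypr2* and 9124 and 9557 CPM in the wildtype. The most abundant transcript, TR_34493, had 24143 and 20554 CPM in ∆*ypr2* and 32718 and 31934 CPM in the wildtype (-0.53 ± 0.69, adjusted p = 0.76). *hex1*, a gene for the protein of Woronin bodies, which plug septal pores, had 6894 and 6766 CPM in ∆*ypr2* and 5498 and 5654 CPM in the wildtype, and TR_44175 had 4300 and 3469 CPM in ∆*ypr2* and 4963 and 5611 CPM in the wildtype. Neither was called, with an adjusted p of 0.045 for *hex1* (TR_123056) and 0.23 for TR_44175.

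The genes called in light were also followed in darkness. In darkness 1332 of 8469 genes (15.7%) were called for the deletion, 820 (9.68%) higher and 512 (6.05%) lower in ∆*ypr2*. Of the 44 genes called in light, 25 were called in darkness, which is 56.8% of the genes called in light and 1.88% of those called in darkness. Of the 32 rises, 14 were downregulated, 3 upregulated and 15 not called in darkness, and of the 12 falls 5 were upregulated, 3 downregulated and 4 not called. The genes *aox1*, TR_74282 and TR_59197 rose under both conditions. The largest contrasts were those of *mirB* (3.66 in light and -6.52 in darkness), *sidH* (2.62 and -5.89), TR_75247 (4.17 and -4.10), *sidJ* (1.90 and -6.26) and *sor4* (4.14 and -3.99). The difference between the effect in light and in darkness was called for 34 of the 44 genes, 28 rises and 6 falls, where 14.3% of all genes tested were called. The genes had been chosen on the light comparison, which is part of that difference, so this share is given as a description.

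**Figure D4:**
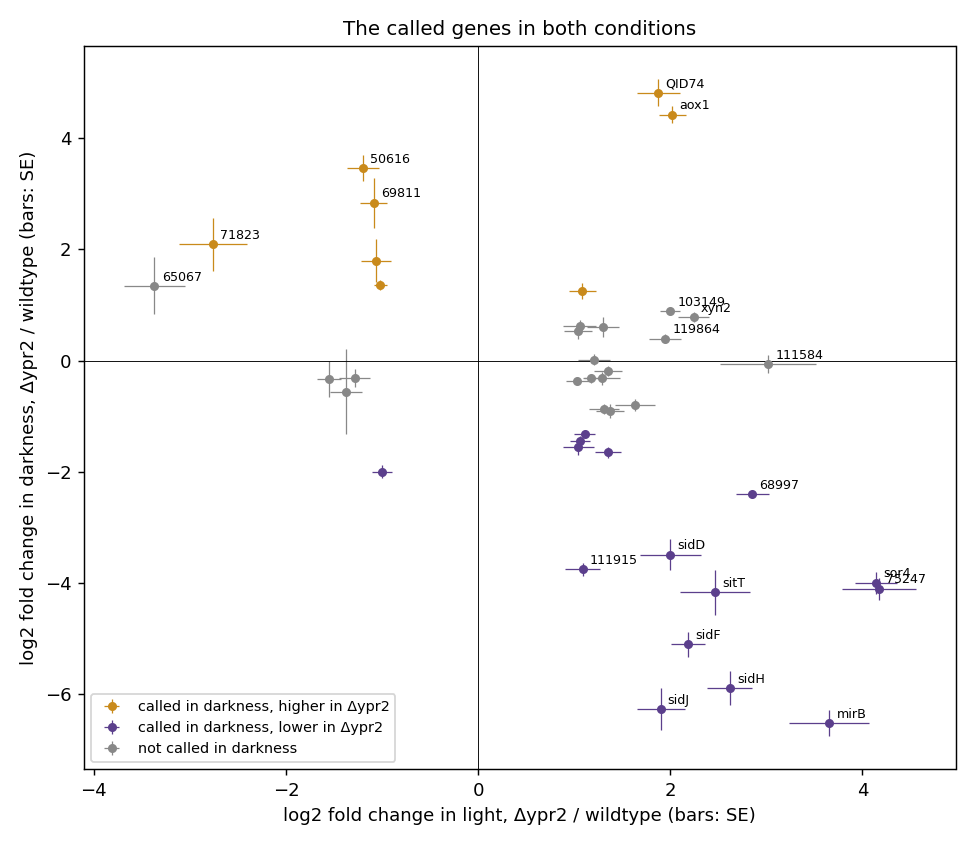
Log2 fold change of ∆*ypr2* over the wildtype in light (horizontal axis) and in darkness (vertical axis) for the called genes other than *ypr2* and TR_58509, with standard errors as bars. Orange points were called upregulated and purple points called downregulated in darkness, and grey points were not called there. The siderophore genes and *sor4* lie at the lower right, up in light and down in darkness, with *mirB* at 3.66 and -6.52.

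The levels of the called genes differed between their directions. The 32 upregulated genes had a median of 12.6 CPM in ∆*ypr2* and 4.50 CPM in the wildtype in light, and 41.1 CPM in ∆*ypr2* and 45.4 CPM in the wildtype in darkness. The median of the mutant in light was thus between the medians of the wildtype in both conditions. The 12 downregulated genes had a median of 15.1 CPM in ∆*ypr2* and 38.2 CPM in the wildtype in light, and 1.65 CPM in ∆*ypr2* and 3.60 CPM in the wildtype in darkness. Over all genes tested the medians were 41.3 CPM in ∆*ypr2* and 41.8 CPM in the wildtype in light, and 43.7 CPM in ∆*ypr2* and 43.0 CPM in the wildtype in darkness. The wildtype light libraries enter both the deletion effect in light and the light response of the wildtype, so these levels are only set side by side. TR_68997, for example, averaged 4.91 CPM in ∆*ypr2* and 0.671 CPM in the wildtype in light, and 43.5 CPM in ∆*ypr2* and 230.1 CPM in the wildtype in darkness.

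The number of called genes depended on single cultures. It was 35 without ∆*ypr2* culture 1, 14 without ∆*ypr2* culture 2, 20 without wildtype culture 1 and 11 without wildtype culture 2 from light. In these fits a strain is represented in light by a lone culture that is assumed to vary like the other groups. Of the 44 genes, 10 kept their call without any 1 of the 8 libraries and in all 14 other settings tried, namely *ypr2*, TR_58509 and TR_103136 among the falls and *sor4*, *xyn2*, *aox1*, TR_68997, TR_103149, TR_119864 and TR_120189 among the rises. All 44 kept the direction of the change in each of the 22 settings, as far as the gene was tested there.

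**Figure D5:**
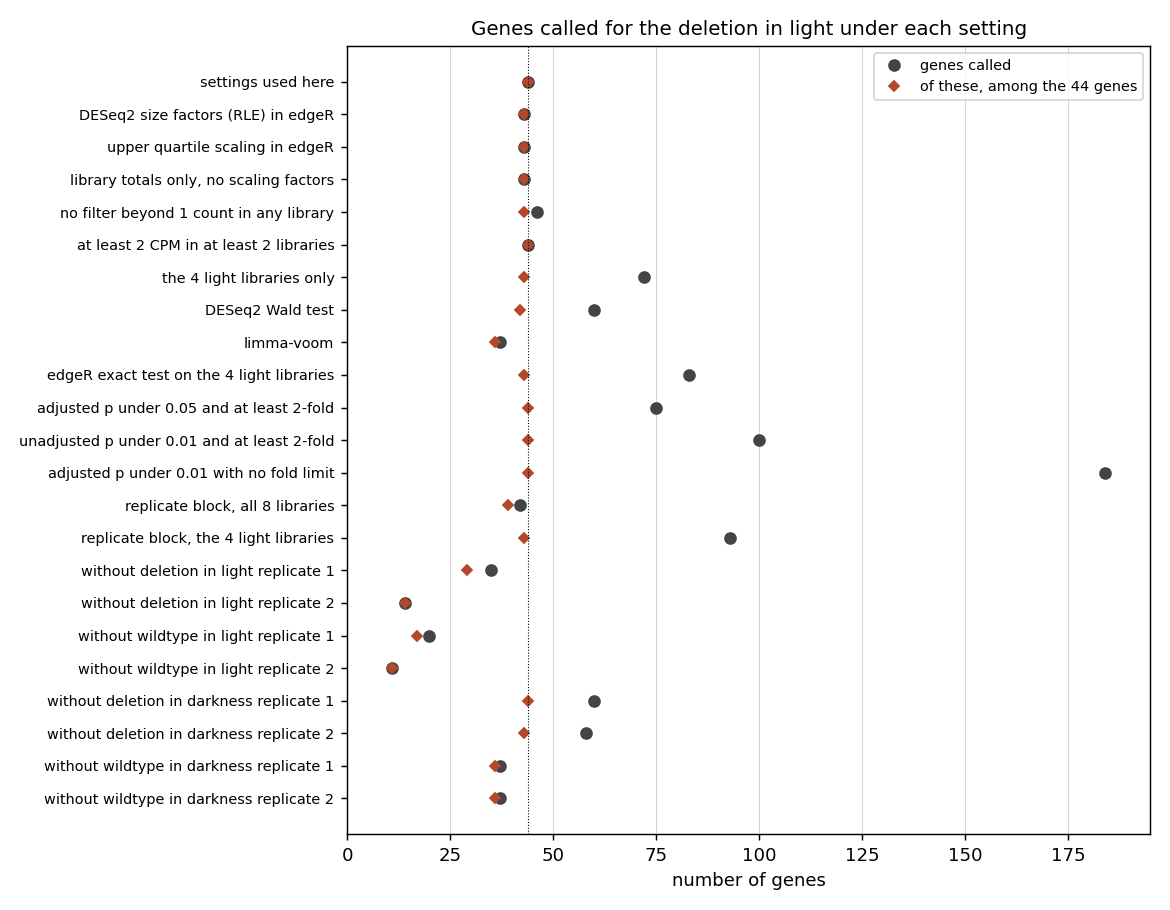
Number of genes called for the deletion in light (dark circles, horizontal axis) under each setting, and how many of them belong to the 44 genes called with the settings used here (red diamonds). The dotted line marks 44. Leaving out light libraries gave the lowest counts, 11 to 35, while fits of the light libraries alone called 72 to 93 genes and held 43 of the 44.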

How the data were processed

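Total RNA of 8 cultures (2 for each strain and light condition) had been sequenced as single reads. The authors aligned reads with Bowtie2 and counted them per gene with RSEM, and SAMtools and bedtools are named too, but no versions are stated in the sources at hand. The deposited values for 9143 genes, called FPKM by the authors, were read here to be expected counts and rounded to whole numbers, since 71.8% to 80.6% of the values in a library are whole and the totals differ between libraries as read numbers do. All CPM values and tests rest on this reading. Library totals are given above and limit the precision of genes with few counts. Genes with at least 0.5 CPM in at least 2 of 8 libraries (8469) were tested with edgeR 4.0.16 (R 4.3.3, TMM scaling, quasi-likelihood F test with legacy estimation) on 4 group means, leaving 4 residual degrees of freedom. Standard errors are the log2 fold change divided by the root of F. An exact permutation test of 2 against 2 cultures cannot give a p below 0.333. Intervals on counts are exact 95% intervals and cover counting error only. The libraries of a group are described as biological replicates. The scripts were tested on simulated data.

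Named were, where tested, *ypr2*, each gene called in light, all members of the gene lists on the SOR cluster, siderophores, iron, cellulose degradation, hydrophobins and surface proteins, members of other lists that were called, the genes beside runs of called genes and the 5 most abundant transcripts. Other genes (TR_3405, TR_124318, TR_58607, TR_120981, TR_44366, TR_69081, TR_72788, *man1*, *axe1*, *agl1*, *bgl1*, *bgl2*, *cel3c*, *medA* and the light marker *env1*) were named after their values were seen. Members and lists were chosen with earlier results of these data known. The lists do not cover whole gene families, as some planned members were taken off before counting. Names came from the study's annotation, and positions from RefSeq (assembly v2.0), which held 9115 of the 9143 genes. Alternatives were DESeq2 1.42.0, limma-voom (limma 3.58.1), other scalings, filters and thresholds, the 4 light libraries alone, a replicate block and leaving out each library.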

Additional observations from a re-analysis of the deposited data

Results flagged for a closer look

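For 45 of the genes named, ∆*ypr2* responded unequally in both light conditions by the test of the difference itself (edgeR, adjusted p under 0.01 and at least 2-fold, called for 14.3% of all genes tested). The genes named were called in light or belong to lists chosen with earlier results known, so this count is a description. The values in this section are log2 fold changes of ∆*ypr2* over the wildtype in light minus those in darkness.

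In the lists of iron genes the difference was called for 6 of 6 genes of the siderophore cluster, each positive, and for 6 of 8 others, 5 positive and 1 negative. It was 10.17 for *mirB*, 8.51 for *sidH*, 8.16 for *sidJ*, 7.29 for *sidF*, 6.63 for *sitT* and 5.49 for *sidD* in the siderophore cluster. Outside the cluster it was 3.09 for TR_60751, a ferrichrome-type peptide synthetase gene, 2.50 for *ftr1b*, 1.96 for TR_78465, 1.88 for *fet3b* and 1.28 for *fet3a*. The homologue of *sreA* had the opposite sign with -1.59, and *ftr1a* (0.35, adjusted p = 0.26) and the homologue of *hapX* (-0.13, adjusted p = 0.20) were not called. In the SOR cluster the values were 8.13 for *sor4* and 1.47 for *sor2*.

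Among the surface proteins the difference was 2.42 for *hfb2*, 2.24 for *hfb3*, 1.62 for *hfb5* and 1.49 for TR_120189. It was 2.41 for TR_121251, -2.28 for TR_123475 and -2.94 for TR_74282, so the CFEM protein genes and the QID74 homologue did not share a sign. In the dark mutant cultures TR_121251 had 1468 CPM in culture 1 and 661 CPM in culture 2.

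The enzymes differed in sign as well, with 2.27 for TR_68279, 1.47 for *xyn2*, -2.40 for *aox1*, -3.92 for TR_69811, -4.66 for TR_50616 and -4.71 for TR_65067. For the regulator TR_71823 it was -4.85 and for the permease TR_57749 it was -2.38. The ATPase and TPR protein genes had positive values of 8.27 (TR_75247), 5.26 (TR_68997) and 1.10 (TR_103149).

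Of the genes without a named function, TR_111915, the small secreted protein, had 4.84, followed by 3.08 for TR_111584, 3.00 for TR_58602, 2.61 for TR_71123, 2.42 for TR_111345 and 2.42 for TR_110740. Smaller values were 2.18 for TR_109945, 1.61 for TR_106606, 1.55 for TR_119864, 1.54 for TR_47424, 1.40 for TR_120030 and 1.19 for TR_57558. TR_122614 was the only one of them below 0, with -2.86.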

How the results depend on the processing

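The number of genes called in light was within 1.5 times 44 under other scalings (43), filters (44 and 46), DESeq2 (60, with 50 up) and limma-voom (37). It was 72 (54 up) with the 4 light libraries alone and 83 (61 up, 22 down) by the exact test on them. At an adjusted p under 0.05 it was 75 (53 up, 22 down), at an unadjusted p under 0.01 it was 100 (68 up, 32 down) and with no fold limit 184 (99 up, 85 down). Genes called in both light and darkness numbered 25, against 48, 55 and 131 at these 3 thresholds, and the difference between conditions was called for 1212 genes, against 3161 with no fold limit. These settings held 42 to 44 of the 44 genes, limma-voom held 36. Leaving out 1 library gave 11 to 60 called genes, 7 to 44 up, 3 to 17 down, 6 to 34 in both conditions and 1046 to 1306 for the difference.

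Replicate numbers were treated as shared names only, as the labels do not say whether same-numbered cultures were handled together. Deviations of same-numbered light libraries did not correlate (r = -0.0391 across genes), which does not settle this for single genes. With the replicate block 42 genes were called in all 8 libraries and 93 (67 up, 26 down) in the light libraries alone, of which 39 and 43 belonged to the 44. No scaling moved the median log2 fold change of all genes by more than 0.1, and no direction turned among the 44 genes. For *cbh2*, which was not called, the log2 fold change went from 4.46 to -0.225 without ∆*ypr2* culture 2 from light.

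With 2 cultures per strain, genes at a few counts rest on single libraries, and a miss of the threshold does not show equal levels.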

Other observations

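In darkness 6 of 7 heat shock protein genes and 4 of 4 catalase genes tested (5 listed) were called higher in ∆*ypr2*. Over all genes tested this share was 9.68%. Of the siderophore cluster 6 of 6 genes were called lower, against 6.05%. These lists were chosen with earlier results of these data known, so these shares and those in light are a description. In light 0 heat shock protein genes, 0 catalase genes and 6 siderophore cluster genes were called higher by edgeR, against 0.378% of all genes tested, and at an unadjusted p under 0.05 there were 0 heat shock protein and 2 catalase genes.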
